A study of Homo sapiens with 96 samples.

Results

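LAPC4 cells are an established line of human prostate cancer in which the androgen receptor works. Their transcripts were compared between cells given the antiandrogen Bicalutamide together with the synthetic androgen R1881 and cells given R1881 alone. The comparison used the 3 arrays labelled with Bicalutamide and the 6 arrays labelled with R1881 alone, which are 9 of the 96 arrays of the study. In the Bicalutamide group the drug was at 20 uM and R1881 at 0.33 nM, in the R1881 group R1881 was at 0.33 nM, and a vehicle group of 6 arrays had 0.05% DMSO. All groups were exposed for 6 h after growth in medium with fetal bovine serum, which the vehicle cells shared. The study as a whole gave R1881 with each of 28 chemicals and asks, by its title, which of them modulate the androgen receptor. Flutamide, Hydroxyflutamide and Cyproterone acetate, each at 20 uM with the same R1881, had 3 arrays each and are set beside Bicalutamide at the end. All samples are of 1 cell line, and although 3 experiments were run on separate days, the labels do not give the day of an array or say what sets control arrays 1 to 3 apart from 1b to 3b, so p-values measure the spread between these arrays, which may be partly technical.

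The androgen receptor is a transcription factor of the steroid receptor family. Androgen binding moves it to the nucleus, where it attaches to DNA elements and recruits coactivators at genes for secreted proteases, steroid and lipid enzymes, transporters and signalling proteins. Bicalutamide is a nonsteroidal anilide that occupies the hormone pocket of the receptor in competition with androgens, and it has long been used against prostate cancer.

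Values are log2 intensities of 18571 genes, each represented by its brightest probe, and the array medians all round to 6.72. The arrays of the study fell into 2 clusters by overall profile, cluster A with 34 arrays and cluster B with 62, which the labels do not explain. Bicalutamide arrays 1 and 3 lay in cluster A and array 2 in cluster B, while of 6 R1881 arrays 2 lay in A and 4 in B, as did those of DMSO. Across the study 6 arrays stood apart from the profile of their own cluster, among them Flutamide 3 but no array of Bicalutamide, R1881 or DMSO. Each comparison was therefore fitted with limma in a pair of ways: over all 96 arrays, and without those 6 arrays with the cluster as a block, called the cluster-blocked fit below. A gene is called at an adjusted p under 0.05 (Benjamini-Hochberg over all genes).

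The label of the cells was checked against marker genes. Of the luminal list, the epithelial genes EPCAM and CDH1 were bright, whereas KLK3 was dim, as given below. EPCAM was at 11.81 to 11.97 in Bicalutamide arrays and 11.03 to 12.00 in R1881 arrays, and CDH1 at 10.84 to 11.02 and 9.95 to 10.82 in the same order of groups. The leukocyte gene PTPRC (6.57 to 6.62 with Bicalutamide, 6.58 to 6.72 with R1881) and the basal keratin KRT5 (6.55 to 6.75 and 6.53 to 6.70) lay near the array median. Over whole lists, the 7 measured luminal markers averaged 9.03 to 9.33 with Bicalutamide and 8.72 to 9.30 with R1881, and the 6 stromal markers 7.17 to 7.20 and 7.20 to 7.39. The 3 measured basal markers averaged 6.76 to 7.16 and 6.86 to 7.29, above KRT5, and the 5 leukocyte markers 6.75 to 6.81 and 6.72 to 6.86.

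In the fit over all arrays, Bicalutamide lowered a small group of genes, among them known androgen receptor targets, and raised none past the threshold. There, 8 genes were lower and 0 higher than with R1881 alone, which is 0.0431% of the genes tested. These were NDRG1, SGK1, C1orf116, FKBP5, UGT2B11, S100P, DIO2 and FGF9, with changes between -2.45 and -1.34 on the log2 scale. They stood lower in the Bicalutamide arrays of both clusters, of which B holds 1 such array. That describes the arrays that also chose the genes. At an unadjusted p under 0.05 there were 211 genes, and over all genes the median change was -0.02.

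**Figure D1:**
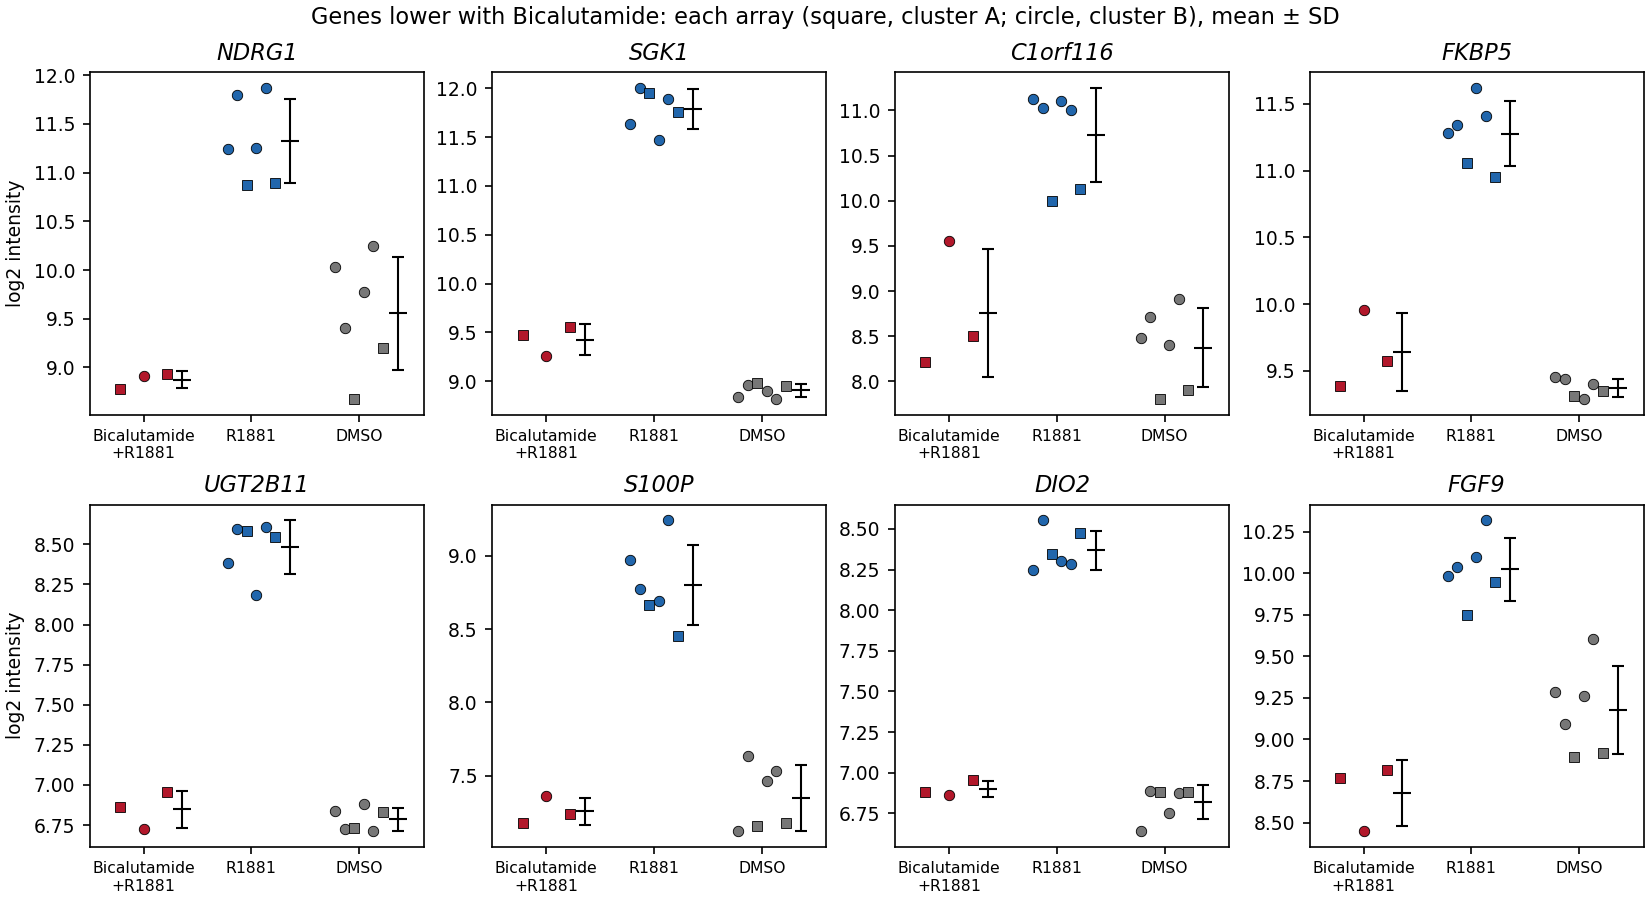
Log2 intensity of the 8 genes called lower with Bicalutamide (y axis) in every array of Bicalutamide + R1881, R1881 and DMSO (x axis). Squares are arrays of cluster A, circles those of cluster B, and bars give mean ± SD. In each panel the 3 Bicalutamide arrays lie below the 6 R1881 arrays and near or within the range of the DMSO arrays.

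The genes of steroid and hormone metabolism had the smallest spread. UGT2B11, a glucuronosyltransferase of the family that inactivates steroids, had log2 intensities of 6.86, 6.72 and 6.96 with Bicalutamide, against 8.38, 8.59, 8.59, 8.19, 8.61 and 8.55 with R1881 and 6.71 to 6.88 with DMSO. The groups with and without Bicalutamide did not overlap, and 2 of the 3 Bicalutamide arrays were within the range of the vehicle arrays, with array 3 above it. The change was -1.64 (SE 0.13, limma adjusted p = 1.44e-14), which is 3.11-fold lower. DIO2, the deiodinase that turns thyroxine into its active form, had 6.88, 6.86 and 6.95 with Bicalutamide, against 8.25, 8.56, 8.34, 8.31, 8.29 and 8.47 with R1881. Every Bicalutamide array was again below every R1881 array, with a change of -1.47 (SE 0.23, limma adjusted p = 0.000114). A dim second probe of DIO2 differed by -0.12 and was not called, and a second, dimmer probe of UGT2B11 differed by -0.70.

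SGK1 and NDRG1 showed the largest falls. SGK1, a kinase that regulates ion channels and is induced by several steroid receptors, had 9.47, 9.26 and 9.56 with Bicalutamide, against 11.63, 12.00, 11.95, 11.47, 11.89 and 11.76 with R1881. All 6 DMSO arrays were lower still, at 8.82 to 8.98, so the Bicalutamide arrays lay between both control groups and overlapped neither. The change from R1881 was -2.36 (SE 0.43, limma adjusted p = 0.00177). It was -2.35 within cluster A and -2.49 within cluster B, and other bright SGK1 probes gave -2.18 and -2.50. NDRG1, a gene of differentiation and of the response to low oxygen, had 8.78, 8.91 and 8.93 with Bicalutamide, against 11.25, 11.80, 10.88, 11.26, 11.87 and 10.89 with R1881 and 8.68 to 10.24 with DMSO. Its Bicalutamide values were at the low end of the vehicle values, and its change of -2.45 (SE 0.38, limma adjusted p = 0.000114) corresponds to 5.46-fold.

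FKBP5 encodes a cochaperone of steroid receptors and is a classical target of both androgen and glucocorticoid receptors. It had 9.38, 9.96 and 9.57 with Bicalutamide, against 11.28, 11.34, 11.06, 11.62, 11.41 and 10.95 with R1881 and 9.29 to 9.46 with DMSO. The change was -1.64 (SE 0.28, limma adjusted p = 0.000705), and Bicalutamide array 2 was the one that stayed highest. C1orf116, known as the specifically androgen-regulated gene, had 8.22, 9.56 and 8.50 with Bicalutamide, against a lowest value of 9.99, a median of 11.01 and a highest of 11.13 with R1881. The groups did not overlap, but in both of them the arrays of cluster A were lower than those of cluster B, and the changes within clusters A and B were -1.70 and -1.50. Over all arrays it was -1.97 (SE 0.42, limma adjusted p = 0.030).

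S100P, a calcium-binding protein, had 7.18, 7.36 and 7.24 with Bicalutamide, against 8.46 to 9.24 with R1881 and 7.12 to 7.64 with DMSO (change -1.54, SE 0.28, limma adjusted p = 0.00177). FGF9, a secreted fibroblast growth factor, had 8.77, 8.45 and 8.82 with Bicalutamide, against 9.75 to 10.32 with R1881 and 8.90 to 9.60 with DMSO (change -1.34, SE 0.26, limma adjusted p = 0.0075). FGF9 was the gene of the 8 whose 3 Bicalutamide arrays also lay below all DMSO arrays, as in 1.07% of all genes, and SGK1 the one whose arrays lay above them, as in 0.689%. A dim second probe of FGF9 differed by -0.18. UGT2B11, NDRG1 and DIO2 remained called whichever array was left out. Without Bicalutamide array 1 the count fell to 4, with adjusted p = 0.98 for C1orf116, 0.064 for FGF9 and 0.051 for FKBP5 and S100P; without Bicalutamide array 2, FGF9 (0.30) and SGK1 (0.055) missed the threshold. C1orf116 also missed it without Bicalutamide array 3 (0.61) and without R1881 arrays 1, 2, 1b and 2b (0.081 to 0.11).

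The promoters of 6 of these 8 genes are listed in the RefSeq-derived table used here, and those of 65 of the 79 genes called in the cluster-blocked fit. Androgen response elements are often written as a pair of 6-base motifs such as AGAACA. In the 250 bases upstream of the start, on either strand, AGAACA was present in 12.4% of all 35116 promoters and GGAACA in 11.6%. AGAACA was in none of the listed promoters of the 6 genes, and GGAACA was in that of C1orf116. Among the 99 listed promoters of the 65 genes, 5.05% held AGAACA, below the share of all promoters, and 11.1% held GGAACA, near that share. KLK2 and KLK3, neighbouring kallikrein genes on chromosome 19, are shown because they carry nearly the same paired element but gave different readouts on the array. The capitals mark, in KLK2, GGAACA and AGTGCT with any 3 bases between them, which 0.0142% of all promoters hold on either strand. In KLK3 they mark AGAACA and AGTGCT at the same spacing, which 0.0199% hold, and in C1orf116 the single motif GGAACA. The KLK2 window is chr19:50873189-50873438 on the plus strand, that of KLK3 is chr19:50854665-50854914 on the plus strand, and that of C1orf116 is chr1:207032757-207033006 on the minus strand, all GRCh38.p14 from RefSeq and written 5′ to 3′ along the gene.
KLK2: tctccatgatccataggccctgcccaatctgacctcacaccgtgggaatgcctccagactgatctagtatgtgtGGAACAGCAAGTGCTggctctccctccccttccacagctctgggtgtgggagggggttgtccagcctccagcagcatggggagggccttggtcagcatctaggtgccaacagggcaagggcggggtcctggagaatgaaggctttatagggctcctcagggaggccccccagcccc
KLK3: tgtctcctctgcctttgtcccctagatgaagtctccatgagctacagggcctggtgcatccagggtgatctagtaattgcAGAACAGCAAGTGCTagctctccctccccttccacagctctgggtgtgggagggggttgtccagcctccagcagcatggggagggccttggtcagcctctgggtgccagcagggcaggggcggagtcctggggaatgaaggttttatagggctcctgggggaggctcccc
C1orf116: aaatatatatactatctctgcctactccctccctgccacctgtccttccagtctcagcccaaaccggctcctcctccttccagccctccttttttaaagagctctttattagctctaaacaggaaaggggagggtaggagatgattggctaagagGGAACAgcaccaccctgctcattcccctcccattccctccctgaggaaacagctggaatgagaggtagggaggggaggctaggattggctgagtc
The paired element begins 176 bases upstream of the start in KLK2 and 170 bases upstream in KLK3. Counted from 1 at its 5′ end, with the KLK3 base first, the elements differ by A1G. A match of letters is a description and says nothing on binding in these cells.

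Of the kallikrein proteases and TMPRSS2, KLK2 and KLK4 were lower in the cluster-blocked fit. KLK2 had 6.98, 7.09 and 7.09 with Bicalutamide, against 8.21, 8.42, 7.91, 8.17, 8.69 and 7.89 with R1881 and 6.79 to 7.37 with DMSO. No Bicalutamide array reached the lowest R1881 array, and the change was -1.08 (SE 0.22, limma adjusted p = 0.00419 in the cluster-blocked fit, 0.114 over all arrays). KLK4, an enamel and prostate protease, had 9.73, 9.77 and 10.07 with Bicalutamide, against 10.69 to 11.24 with R1881 and 9.48 to 10.43 with DMSO (change -1.06, SE 0.19, adjusted p = 0.000584 in the cluster-blocked fit and 0.0917 over all arrays, limma). KLK3, which encodes prostate-specific antigen, was dim in every group, at 6.64 to 6.83 with Bicalutamide, 6.59 to 7.03 with R1881 and 6.65 to 6.84 with DMSO. Its change with Bicalutamide was -0.07 (95% interval -0.33 to 0.18) and the difference between R1881 and DMSO was 0.10 (-0.11 to 0.31), neither of them called. TMPRSS2, a membrane protease whose promoter is fused to ETS genes in many prostate tumours, kept much of its level. It had 10.72, 11.31 and 10.73 with Bicalutamide, against 10.95 to 11.75 with R1881 and 10.15 to 10.67 with DMSO. The Bicalutamide arrays overlapped the R1881 arrays and lay above all DMSO arrays, with differences of -0.41 from R1881 and 0.54 from DMSO, neither called.

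The comparison with DMSO asked how far Bicalutamide with R1881 differed from vehicle. The standard error at the median gene was 0.21 over all arrays and 0.11 in the cluster-blocked fit. A gene that was not called is therefore not shown to equal vehicle. Limma called 0 genes in the fit over all arrays (93 at an unadjusted p under 0.05) and 1 in the cluster-blocked fit, which is 0.00538%. That gene was PCDH7, a protocadherin of cell adhesion, with 7.56, 7.65 and 7.57 with Bicalutamide, against 7.93 to 8.48 with DMSO. R1881 arrays had 7.70 to 8.18, so the Bicalutamide arrays were below those of both controls. Its difference from DMSO was -0.54 (SE 0.10, limma adjusted p = 0.0149), and from R1881 -0.28 (adjusted p = 0.459), in the cluster-blocked fit. These values are of the brightest PCDH7 probe. Dimmer probes of the gene differed from R1881 by 0.30, -0.11 and 0.10 over all arrays. The first of these had means of 7.11 with Bicalutamide and 6.90 with DMSO, in the opposite direction.

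R1881 alone gave 22 higher genes (0.118%) and 1 lower gene than DMSO over all arrays, 0.124% of those tested, and 137 higher (0.738%) and 46 lower genes (0.248%) in the cluster-blocked fit. For the 23 genes called over all arrays, the differences from DMSO with Bicalutamide present are set beside those of R1881 alone, and both share the DMSO arrays. With Bicalutamide, 0 of these 23 genes were called against DMSO and 20 of 23 were within 0.5 of it on the log2 scale, compared with 18152 of all 18571 genes. SGK1 differed from DMSO by 0.52 with Bicalutamide and by 2.88 with R1881, and FKBP5 by 0.26 and 1.90. NPPC, which encodes the C-type natriuretic peptide, differed by 0.48 with Bicalutamide and 1.89 with R1881, and EAF2, a partner of transcription elongation factors, by 0.11 and 1.25.

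STEAP1, a membrane metalloreductase-family protein of prostate cancer cells, had the largest difference from DMSO among the 23 in the fit over all arrays, while in the cluster-blocked fit that of C1orf116 was larger, at 0.72. It had 8.86, 8.30 and 8.78 with Bicalutamide, against 9.23, 9.25, 10.01, 9.50, 8.64 and 10.15 with R1881 and 7.28 to 8.22 with DMSO. The Bicalutamide arrays were above every DMSO array and overlapped the R1881 arrays. The difference from DMSO was 0.94 over all arrays (95% interval -0.06 to 1.94) and 0.63 in the cluster-blocked fit, and neither was called. NDRG1 lay on the other side, 0.68 below DMSO with Bicalutamide (95% interval -1.43 to 0.08). CAMK2N1, an inhibitor of calmodulin-dependent kinase and the 1 gene called lower with R1881 over all arrays, differed from DMSO by -0.30 with Bicalutamide and by -0.85 with R1881 alone.

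**Figure D2:**
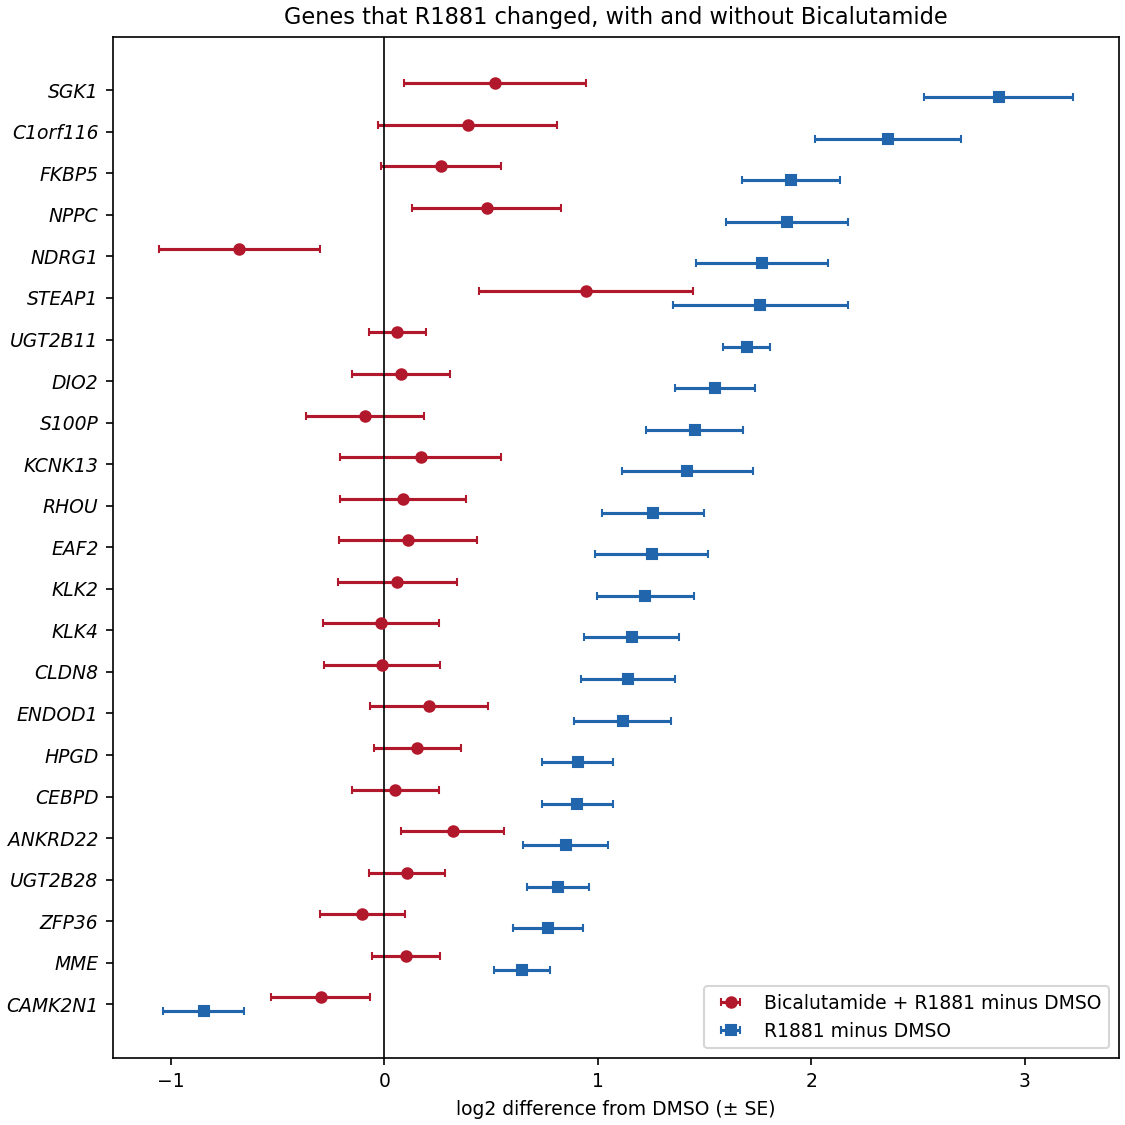
Log2 difference from DMSO ± SE (x axis, fit over all arrays) for the 23 genes called in R1881 against DMSO (y axis), with Bicalutamide + R1881 as circles and R1881 alone as squares. Circles lie near 0 for most genes, and the farthest are STEAP1 at 0.94 and NDRG1 at -0.68.

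The cluster-blocked fit called 79 genes between Bicalutamide and R1881, 67 lower (0.361%) and 12 higher (0.0646%), which is 0.425% of the genes. The standard error at the median gene was 0.11 in it and 0.21 over all arrays. All 8 genes above were among the lower ones. Of the 67 lower genes, 53 had the 3 Bicalutamide arrays below all 6 R1881 arrays, as a description of the arrays that also chose them, against 1.87% of all genes. Against DMSO, 56 of the 67 were within 0.25 in the same fit, compared with 17652 of all 18571 genes, which is a larger share. The median difference of the 67 from DMSO was 0.05, and 0 of them were called.

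**Figure D3:**
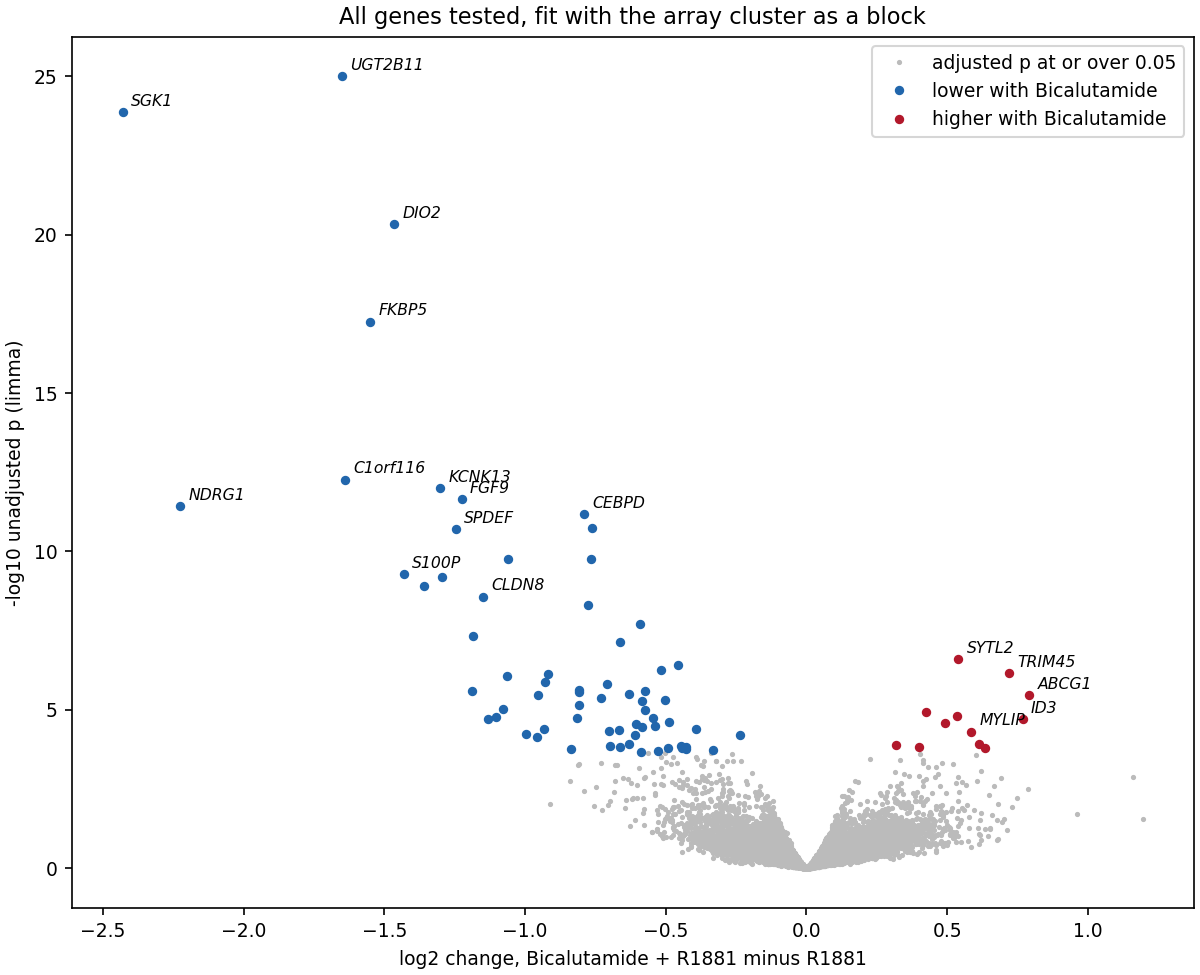
Log2 change between Bicalutamide + R1881 and R1881 (x axis) against the -log10 unadjusted p of limma (y axis) for all 18571 genes in the cluster-blocked fit. The 67 genes called lower reach -2.43 (SGK1), and the 12 called higher reach 0.79 (ABCG1).

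NPPC, the natriuretic peptide gene, was among the lower genes. It had 7.19, 7.78 and 7.14 with Bicalutamide, against 8.32 to 9.14 with R1881 (change -1.36, SE 0.19, adjusted p = 1.43e-06 by limma in the cluster-blocked fit). KCNK13, a potassium channel subunit, had 7.13, 7.16 and 7.03 with Bicalutamide, against 7.95 to 8.65 with R1881 (change -1.30). SOCS2, a feedback inhibitor of cytokine receptors, had 9.17, 8.39 and 9.42, against 9.32 to 10.61 with R1881 (change -1.18), and here the groups overlapped in raw values. Within clusters, the means of all 67 genes were lower with Bicalutamide, in cluster A and in cluster B, which holds 1 Bicalutamide array. The same arrays chose these genes with the cluster as a block, so this is no independent evidence. CLDN8, a tight junction protein, changed by -1.15 and RHOU, a small GTPase, by -1.06.

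Of 12 measured targets that androgen and glucocorticoid receptors share, 6 fell in the cluster-blocked fit and 0 rose, where 0.361% of all genes fell and 0.0646% rose. The median change of the 12 was -0.71 and that of all genes -0.01. The 6 were SGK1, FKBP5, TIPARP, ERRFI1, CEBPD and KLF9. All gene lists here were chosen with earlier results of these data known, so their counts and medians are descriptions and no independent evidence. CEBPD, a transcription factor of the C/EBP family, had 7.87, 8.07 and 7.78 with Bicalutamide, against 8.65 to 8.95 with R1881 and 7.72 to 8.07 with DMSO. The Bicalutamide arrays were below all R1881 arrays and within those of DMSO, with a change of -0.79 (SE 0.09, limma adjusted p = 1.36e-08, cluster-blocked fit). TIPARP, a mono-ADP-ribosyltransferase also induced through the aryl hydrocarbon receptor, changed by -1.19 (adjusted p = 0.00151), and it was the 1 called member of 14 measured xenobiotic response genes.

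Among 23 measured androgen-induced genes of transport and signalling, 9 fell and 0 rose in that fit, against the same 0.361% and 0.0646% of all genes, with a median change of -0.47. The 9 were NDRG1, C1orf116, EAF2, STEAP1, RHOU, ABCC4, SLC45A3, STEAP2 and PMEPA1. SLC45A3, the prostein transporter of prostate epithelium, had 7.78, 8.20 and 7.96 with Bicalutamide, against 8.45 to 9.04 with R1881 (change -0.70). ABCC4, an exporter of cyclic nucleotides and prostaglandins, had 8.95 and 7.47 in Bicalutamide arrays 1 and 2, with array 3 close to array 1, against 8.23 to 9.55 with R1881. Arrays of cluster A were the brighter ones in both groups, and its change was -0.70 with the cluster as a block but -0.40 (adjusted p = 1.00) over all arrays. Of 16 measured genes of lipid metabolism 3 fell, namely HPGD, which inactivates prostaglandins, ABHD2 and PGC. Of 7 genes that had been listed because they responded strongly in these very arrays, 6 fell (UGT2B11, DIO2, S100P, NPPC, KCNK13 and CLDN8), and this count too is no independent evidence.

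SPDEF, an ETS factor of prostate luminal cells, was the 1 called member of 13 measured lineage factors of the receptor. It had 8.21, 8.90 and 8.12 with Bicalutamide, against 9.57 to 10.21 with R1881 and 8.25 to 9.34 with DMSO. All Bicalutamide arrays were below all R1881 arrays, with a change of -1.25 (SE 0.15, limma adjusted p = 3.25e-08, cluster-blocked fit) and -1.49 over all arrays (adjusted p = 0.154). Of 13 measured androgen-repressed genes, 0 rose and UGT2B28 fell, by 0.78 on the log2 scale. UGT2B28 is a steroid glucuronosyltransferase like UGT2B11, and with R1881 it was 0.81 above DMSO in these cells, so it did not follow the name of its list.

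The 12 higher genes had changes between 0.32 and 0.79 with a median of 0.56, where the 67 lower genes had changes between -2.43 and -0.24 with a median of -0.77, and 7 of the 12 had all Bicalutamide arrays above all R1881 arrays. That count describes the arrays that also chose the genes, and 1.16% of all genes had such an order. In the fit over all arrays 0 of the 12 were called and 4 had an unadjusted p under 0.05. ABCG1, which exports cholesterol from cells and is a target of the liver X receptors, had 7.90, 8.19 and 8.13 with Bicalutamide, against 7.32, 7.42, 7.29, 7.15, 7.15 and 7.37 with R1881 and 7.18 to 7.83 with DMSO. Bicalutamide arrays were above those of both controls, and the change from R1881 was 0.79 (SE 0.15, limma adjusted p = 0.00178 in the cluster-blocked fit, 0.114 over all arrays). Another bright probe of ABCG1 also gave 0.79, and 3 dim probes gave -0.08 to -0.05. MYLIP, a ubiquitin ligase for the LDL receptor and likewise a liver X receptor target, had 9.42, 9.35 and 9.58 with Bicalutamide, against 8.57 to 9.03 with R1881 and 8.83 to 9.06 with DMSO. It too was above both controls (change from R1881 0.58, SE 0.13, limma adjusted p = 0.0155, cluster-blocked fit). These were 2 of 7 measured liver X receptor and sterol efflux genes, the median of which was 0.03, and neither was called against DMSO.

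The others of the higher group lay nearer to vehicle. SYTL2, which tethers secretory vesicles, had 8.94, 8.52 and 8.78 with Bicalutamide, against 7.92 to 8.36 with R1881 and 8.58 to 8.88 with DMSO (change from R1881 0.54, SE 0.09, limma adjusted p = 0.000213, cluster-blocked fit). TRIM45, a ubiquitin ligase, had 8.63, 9.17 and 8.40, against 7.74 to 8.51 with R1881 and 8.60 to 9.02 with DMSO, so that Bicalutamide array 3 overlapped the R1881 arrays (change 0.72). ID3, which blocks basic helix-loop-helix factors, changed by 0.77, and BAMBI, a decoy receptor for the TGF-beta family, by 0.63. Of 22 alternative settings, ID3 and BAMBI were called in 1 each, TRIM45 in 2 and SYTL2 in 3. FZD4, a Wnt receptor, had 8.89, 9.89 and 8.95, against 8.45 to 9.32 with R1881, and its change of 0.30 over all arrays turned to -0.02 without Bicalutamide array 2.

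Among genes not called over all arrays, the largest changes with fully separated groups included ID2 (0.86, adjusted p = 1.00), FOXQ1 (0.67) and SLFN5 (0.58) on the high side. On the low side they included ANGPTL4, a secreted inhibitor of lipoprotein lipase, at -1.27, and HES6, a basic helix-loop-helix factor, at -1.19. ANGPTL4 had 9.98, 10.49 and 10.10 with Bicalutamide, against 10.78 to 12.35 with R1881 and 10.38 to 11.79 with DMSO. In the cluster-blocked fit ANGPTL4 (adjusted p = 0.0179) and HES6 (0.00693) passed the threshold, whereas ID2 (0.307), FOXQ1 (0.346) and SLFN5 (0.696) did not.

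Other programmes showed few or no calls in the cluster-blocked fit. None of 17 mitotic genes (median 0.17), 15 S phase genes (-0.03), 12 p53 targets (-0.01), 11 endoplasmic reticulum chaperones (0.04), 11 heat shock genes (0.08), 14 ribosome biogenesis genes (-0.05), 12 respiratory chain genes (0.00), 11 immediate early genes (-0.06), 7 metallothioneins (-0.03) and 14 steroid enzymes (-0.02) was called. At an unadjusted p under 0.05 there were 4 of the mitotic genes and at most 2 of each of those other lists, beside 874 of all 18571 genes. Of 17 hypoxia and glycolysis genes, NDRG1 and HK2, the hexokinase of glycolysis, fell, where 0.361% of all genes fell. More of that list was lower without a call: 14 of 17 had negative changes (9832 of all 18571 genes). The median of the 17 was -0.24, and 7 had an unadjusted p under 0.05. They averaged 9.35 to 9.44 with Bicalutamide, 9.65 to 9.93 with R1881 and 9.41 to 9.72 with DMSO. Of 16 genes of the amino acid response (median -0.01) DDIT4, an inhibitor of mTOR complex 1, fell. The luminal, basal, neuroendocrine, stromal and leukocyte marker lists had 0 called members, with medians of 0.03, -0.05, -0.01, -0.01 and -0.02.

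**Figure D4:**
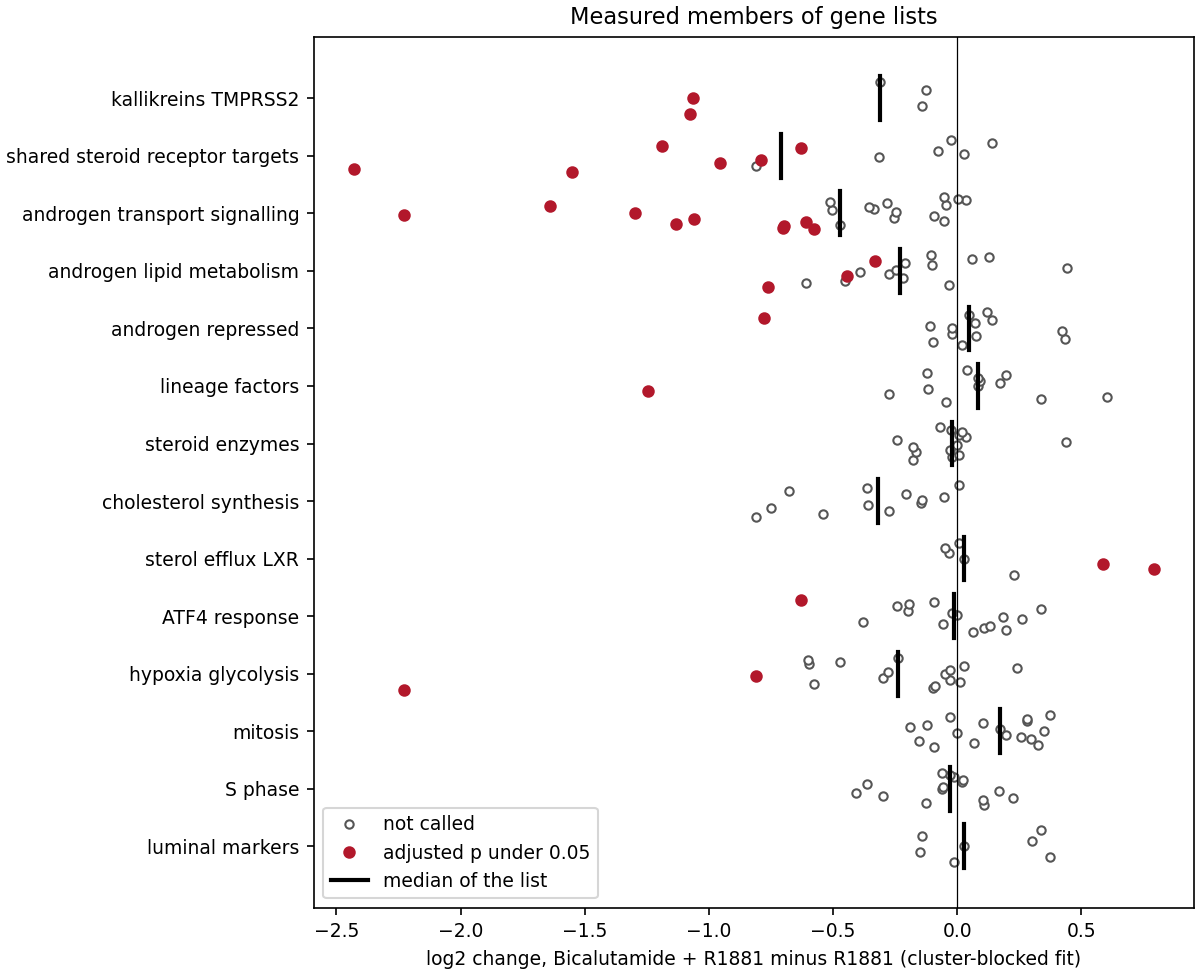
Log2 change between Bicalutamide + R1881 and R1881 in the cluster-blocked fit (x axis) for the measured members of 14 of the 27 gene lists (y axis), without the list chosen for its strong response in these arrays, whose median was -1.36. Filled points passed the threshold, open points did not, and bars mark the medians, of which the farthest below 0 among the lists drawn is that of the shared androgen and glucocorticoid receptor targets, at -0.71.

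The androgen index, the mean log2 intensity of 56 measured genes of 61 listed as androgen-induced, gives the level of the response per array. It was 8.50 ± 0.03 with Bicalutamide (SD, n = 3), against 8.99 ± 0.05 with R1881 and 8.41 ± 0.03 with DMSO (SD, n = 6 each). The Bicalutamide arrays lay between 8.46 and 8.52, below all R1881 arrays at 8.93 to 9.05 and above all DMSO arrays at 8.38 to 8.46. With Flutamide it was 8.43 ± 0.01, with Hydroxyflutamide 8.69 ± 0.06 and with Cyproterone acetate 8.91 ± 0.02 (SD, n = 3 each). The Flutamide value includes array 3, which stood apart, and its small SD hides wider spreads in lists that make up the index. With Flutamide the kallikreins and TMPRSS2 averaged 8.13 to 8.61 (SD 0.25) and the lipid genes 8.71 to 9.22 (SD 0.26). With Bicalutamide these SDs were 0.07 and 0.03.

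Bicalutamide was then compared with 3 other antiandrogens at the same dose and time, which makes 3 pairs, with p-values adjusted over all genes and pairs. Flutamide and Hydroxyflutamide are nonsteroidal anilides like Bicalutamide, Hydroxyflutamide being the hydroxylated metabolite of Flutamide, whereas Cyproterone acetate is a steroid. Between Bicalutamide and Flutamide, limma called 0 genes over all arrays (643 at an unadjusted p under 0.05) and 0 in the cluster-blocked fit (134), in which Flutamide has only arrays 1 and 2. SGK1 had 9.47, 9.26 and 9.56 with Bicalutamide, against 9.47, 9.005 and 9.25 with Flutamide, a difference of 0.18 (95% interval -0.80 to 1.17). UGT2B11 differed by -0.06 (95% interval -0.36 to 0.25) and FKBP5 by 0.51 (-0.14 to 1.15). A p that misses the threshold does not show that both drugs act alike.

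Against Hydroxyflutamide, all of the 8 genes had lower means with Bicalutamide over all arrays, with a median difference of -0.67. Of all 18571 genes, 9682 were lower. The 8 genes were chosen by low values in these same Bicalutamide arrays, so this count is no independent evidence. Limma called 0 genes over all arrays (217 at an unadjusted p under 0.05). In the cluster-blocked fit 4 genes were lower and 0 higher after adjustment over genes and pairs. Without the adjustment over pairs 2 were called, or 0.0108%, namely SGK1 and UGT2B11. SGK1 had 9.47, 9.26 and 9.56 with Bicalutamide, against 9.84, 10.85 and 10.71 with Hydroxyflutamide. The groups did not overlap, and the difference was -1.11 (95% interval -1.45 to -0.78, adjusted p = 7.51e-05 over genes and pairs, limma). UGT2B11 had 6.86, 6.72 and 6.96, against 7.49, 7.43 and 7.39, a difference of -0.61 (-0.82 to -0.39, adjusted p = 0.00195). For NDRG1 the difference was -1.01 (-1.61 to -0.41, adjusted p = 0.747), and for S100P -0.17 (-0.62 to 0.28).

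Against Cyproterone acetate the 8 genes were again all lower with Bicalutamide, with a median difference of -1.07 over all arrays. Of all 18571 genes, 10509 were lower, and the same Bicalutamide arrays had chosen the 8. The 1 gene called over all arrays, 0.00538%, was HMGCS1, while the cluster-blocked fit called 34 lower and 1 higher, 0.188%, of which 26 and 1 passed with adjustment over the pairs. SGK1 had 9.47, 9.26 and 9.56 with Bicalutamide, against 10.71, 10.86 and 11.13 with Cyproterone acetate, a difference of -1.54 (95% interval -1.88 to -1.21, adjusted p = 1.98e-08 over genes and pairs, limma, cluster-blocked fit). FKBP5 differed by -1.14 (-1.44 to -0.85, adjusted p = 2.97e-06) and C1orf116 by -1.17 (-1.59 to -0.76, adjusted p = 0.00183). CLDN8 differed by 0.06 (-0.32 to 0.44) and KCNK13 by -0.14 (-0.48 to 0.19), and neither was called. The gene higher with Bicalutamide was SYTL2 (0.50, adjusted p = 0.0359).

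Genes of cholesterol synthesis were among those that differed between these drugs. All 12 measured members were lower with Bicalutamide than with Cyproterone acetate, with a median of -1.08 in the cluster-blocked fit, and 7 were called: HMGCS1, INSIG1, MVD, SQLE, DHCR7, LSS and MVK. Of all 18571 genes, 9939 were lower in that fit and 0.183% were called lower. The 12 genes averaged 8.57 to 8.83 with Bicalutamide, 8.27 to 8.53 with Flutamide and 8.64 to 8.80 with Hydroxyflutamide. They averaged 9.57 to 9.75 with Cyproterone acetate, 8.93 to 9.20 with R1881 and 8.90 to 9.14 with DMSO. Low values were thus shared by the 3 anilides. HMGCS1, which makes the precursor of mevalonate, had 10.01, 9.83 and 10.30 with Bicalutamide, against 11.31, 12.46 and 12.04 with Cyproterone acetate. R1881 arrays had 10.55 to 11.20 and DMSO arrays 10.69 to 11.43, so the Bicalutamide arrays were below both controls and the Cyproterone acetate arrays were above all R1881 arrays. The difference between the drugs was -1.89 over all arrays (95% interval -2.54 to -1.24, limma adjusted p = 0.00938 over genes and pairs), although 0 genes were called without Bicalutamide array 1 or without array 2. INSIG1, the sterol-sensing retention protein, differed by -1.32 and MVD, a mevalonate pathway decarboxylase, by -1.27 in the cluster-blocked fit. Against R1881, HMGCS1 differed by -0.81 (SE 0.22, limma adjusted p = 0.0936) and 0 of the 12 genes were called, with a median of -0.32.

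**Figure D5:**
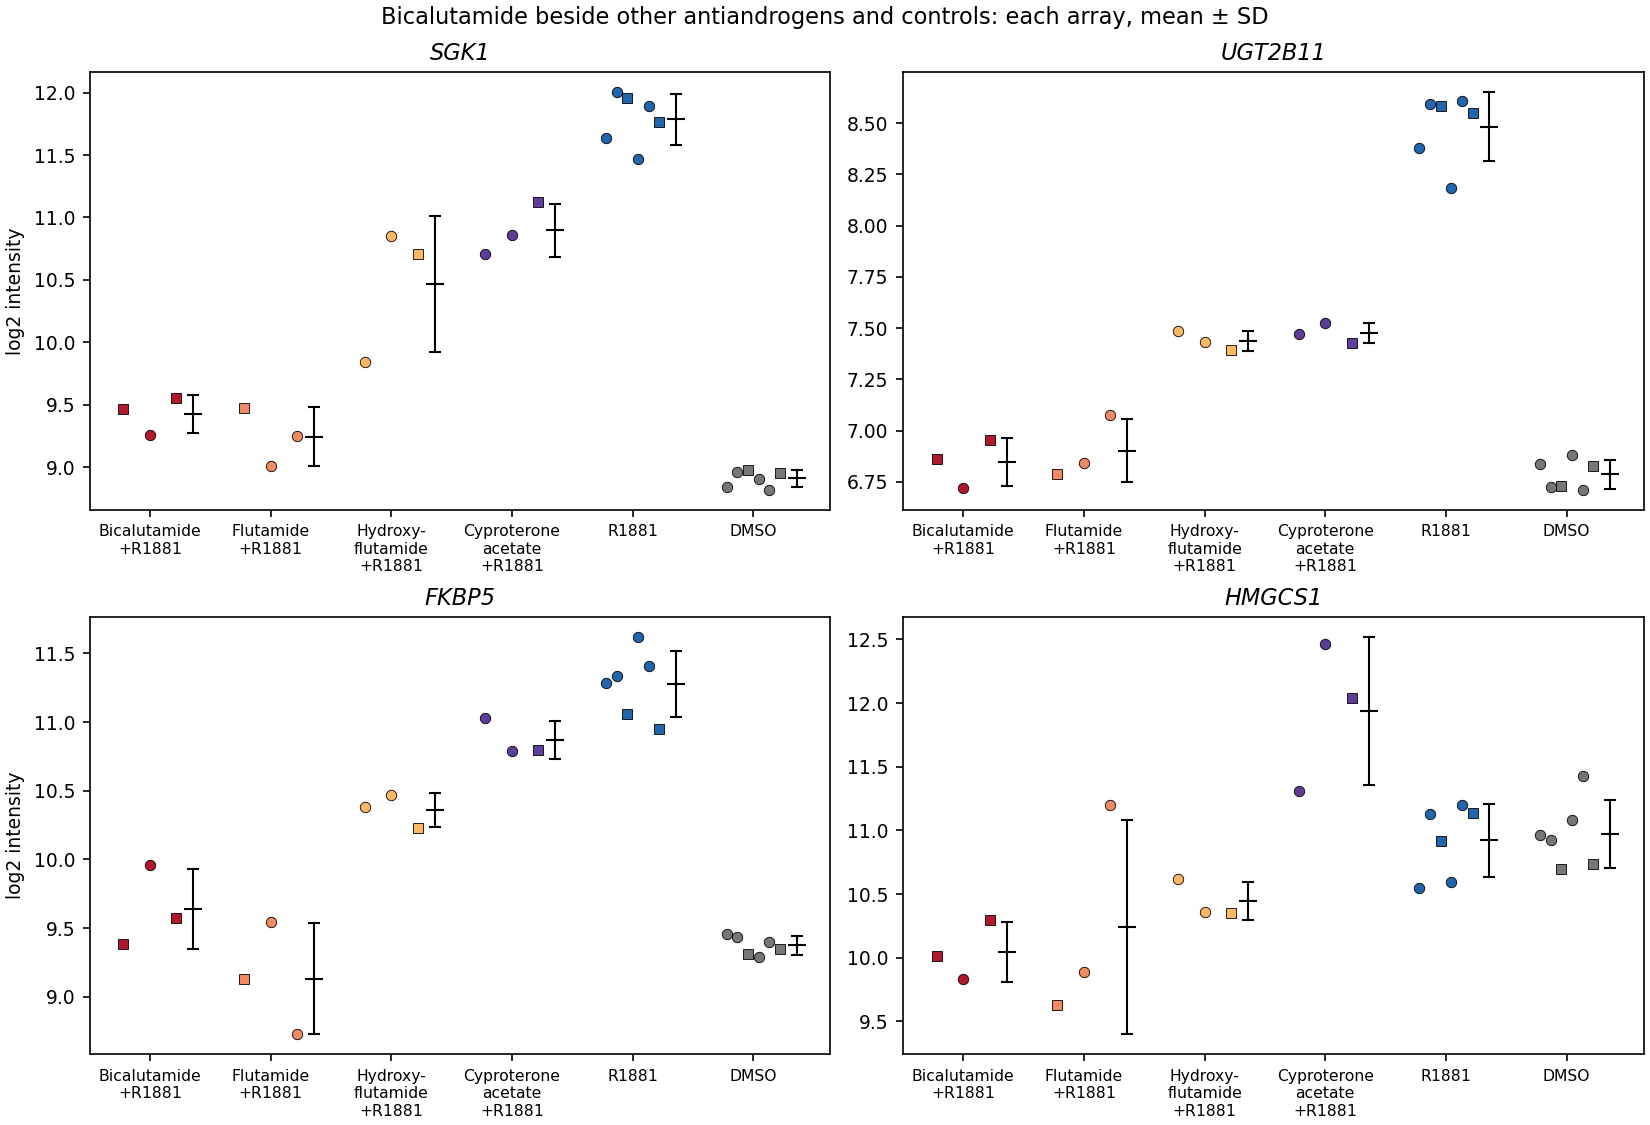
Log2 intensity (y axis) of SGK1, UGT2B11, FKBP5 and HMGCS1 in every array of 4 antiandrogens with R1881, of R1881 and of DMSO (x axis); squares are cluster A, circles cluster B, and bars give mean ± SD. SGK1 with Bicalutamide and Flutamide lies at 9.005 to 9.56, below the arrays of Hydroxyflutamide and Cyproterone acetate, and HMGCS1 is highest with Cyproterone acetate.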

How the data were processed

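RNA of LAPC4 cells was hybridized to Illumina Human HT-12 v4 arrays, 96 in 30 groups. Per the series' design text, scanning used iScan software version 3.3.28, and GenomeStudio and Partek served for analysis. The submitters' processing notes name limma. Values as deposited by the authors are log2 intensities between 6.32 and 14.2, as judged from their range, with near-equal medians in all arrays, and were used without further normalization. How background was corrected is not stated in the labels.

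Of 48107 probes, 30113 had 1 gene symbol in the platform annotation, 8 had several and 17986 had no entry. Probes above the median of the array in at least 3 arrays were kept (43820), and each gene was represented by its brightest, which gave 18571 genes. Missing values (191) were left out array by array. One mean for each group was estimated with limma 3.58.1 (lmFit, contrasts.fit, eBayes; R 4.3.3, data.table version 1.17.8) over all 96 arrays. Errors are standard errors and intervals cover 95%. Array clusters came from 2-means on the 2000 most variable genes, and an array stood apart where its correlation with its cluster's median profile was under 0.85. In the cluster-blocked fit 6 arrays were left out and the cluster was a term. The number of arrays limits the precision. The code was tested on simulated data.

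Named genes were those called, the largest changes in the cluster-blocked fit, the largest uncalled changes with separated groups, those called against DMSO or between drugs, called or most changed members of lists, and KLK3 and TMPRSS2. The 27 gene lists (294 of 326 genes measured), the rules and the members were chosen with earlier results of these data known, so lists are described by counts and medians. Same-numbered R1881 and DMSO arrays deviated together (correlations of 0.72, 0.72 and 0.89 for numbers 1 to 3). In both groups arrays 1, 2, 1b and 2b lay in cluster B and arrays 3 and 3b in A. A pairing by number therefore cannot be told apart from the cluster, and the fits used for the results above had none. Alternatives were other sets of arrays, blocks, normalization, filters and probe summaries. Promoters are from RefSeq.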

Additional observations from a re-analysis of the deposited data

Results flagged for a closer look

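GPAT3, an acyltransferase of triglyceride synthesis and a gene called higher with Bicalutamide in the cluster-blocked fit, was at 7.3395 in DMSO array 1b, while the other 5 DMSO arrays lay between 7.54 and 7.65, so that this array stood away from the rest of its group. Of 74 groups of a gene looked at in this way, 1 stood out, and chance alone marks about 1 in 20.

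A fit over all 43820 kept probes called 10, of which 2 have no gene in the annotation used here and so are in no comparison above. Probe ILMN_1679194 changed by -1.4055 with Bicalutamide against R1881 (means of 7.10 with Bicalutamide, 8.51 with R1881 and 6.92 with DMSO, limma adjusted p = 8.71e-06), and probe ILMN_1755897 changed by -1.4402 (6.81, 8.25 and 6.71, adjusted p = 0.0196).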

How the results depend on the processing

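The 8 genes called between Bicalutamide and R1881 became 37 with only the groups compared, 79 in the cluster-blocked fit (12 higher), 18 after cyclic loess, 4 with same-numbered control arrays averaged and 4 with control arrays 1b to 3b only; leaving out 1 array gave 4 (without Bicalutamide array 1) to 9. The cluster-blocked fit gave 1 against DMSO, 2 against Hydroxyflutamide and 35 against Cyproterone acetate. For the last pair the count was 5 with only the groups compared, 6 after cyclic loess, and 0 to 1 when 1 array was left out. Deviations of same-numbered Bicalutamide and R1881 arrays correlated at -0.70, 0.39 and 0.89. Bicalutamide array 1 was in cluster A and R1881 arrays 1 and 1b in B, so this too cannot be told apart from the cluster. A replicate block on the number gave 8 genes against R1881 and 2 against Cyproterone acetate. The same block gave 29 for R1881 against DMSO. For R1881 against DMSO the 23 genes became 71 with only the groups compared, 183 in the cluster-blocked fit, 40 with the cluster block alone, 5 with same-numbered arrays averaged, 5 with arrays 1 to 3, 6 with arrays 1b to 3b and 60 after cyclic loess, and 19 to 23 when 1 array was left out. An alternative chosen after seeing the data, with only Bicalutamide, R1881 and DMSO arrays and the cluster as a block, gave 76 and 214. The index difference of -0.49 was -0.56 with a filter at the 75th percentile, -0.41 with the mean of all probes of a gene, -0.57 with the strongly responding genes added, and -0.51 to -0.48 when 1 array was left out. FZD4 turned to -0.019 without Bicalutamide array 2 and reached 0.48 without array 1. Of the other values of named genes, 630 kept their direction and side of the threshold, 50 newly passed it and 22 no longer did. The cause of these shifts was not tested, except that averaging or dropping arrays leaves fewer of them.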
